A study of Mus musculus with 165 samples.

Results

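The livers of 18 male mice aged 28 months were compared with the livers of 16 male mice aged 3 months. Both groups are of the strain C57BL/6J/Ukj and carry no treatment, and per the labels the animals were held for aging alone. These 34 livers were taken by the age in their label from 83 livers of 5 ages, and the series holds 165 libraries of liver and brain in all. The labels put each liver in library preparation 1, 2 or 3. The young group has 5, 6 and 5 livers in these preparations and the old group has 7, 5 and 6. A group holds a single age, so whatever else differed between the cohorts (birth season, housing period, time of death) cannot be told apart from age. The other 49 livers, of 9, 15 and 24 months, entered the fit and show when in life a difference appears.

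The liver is mostly hepatocytes, which make plasma proteins, bile acids and lipoproteins and break down drugs and fatty acids. In male mice growth hormone is released in pulses, and the pulses act through the receptor Ghr, the kinase Jak2 and the transcription factor Stat5b to keep a male set of hepatocyte genes on and a female set off. Kupffer cells, lymphocytes, sinusoidal endothelium, stellate cells and cholangiocytes make up the rest of the organ, so a bulk library mixes their RNA with that of hepatocytes. For every gene below, more or fewer cells of a type and more or less RNA per cell cannot be told apart.

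Levels are given as CPM, a gene's counts scaled to a common library size of 1 M (mega) counts, which does not correct for gene length, so levels are compared between livers and not between genes. A gene is called when the adjusted p of edgeR's quasi-likelihood test with Benjamini-Hochberg adjustment is under 0.05, and "rose", "higher", "fell" and "lower" refer to called genes. Fold changes are log2 values for 28 minus 3 months with their standard error (SE).

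The 300 bases around the start of a gene (250 before and 50 after) are shown for 4 called genes of lists described below, since each holds the binding letters of the factor that the list is named for. They come from RefSeq (GRCm38.p6) and read 5′ to 3′ along the gene's own strand, with the matches to that list's own motif in capitals. The letters searched, on both strands, were TTCNNNGAA for STAT factors, GAAA, 2 free bases and GAAA for the interferon response (read on the other strand as TTTC, 2 free bases and TTTC), and CACGTG for the E-box of the clock. STAT and interferon matches overlapped each other in 23 of the 27025 genes with a promoter.
C8a, a growth hormone-driven complement gene, minus strand, chr4:104876349-104876648: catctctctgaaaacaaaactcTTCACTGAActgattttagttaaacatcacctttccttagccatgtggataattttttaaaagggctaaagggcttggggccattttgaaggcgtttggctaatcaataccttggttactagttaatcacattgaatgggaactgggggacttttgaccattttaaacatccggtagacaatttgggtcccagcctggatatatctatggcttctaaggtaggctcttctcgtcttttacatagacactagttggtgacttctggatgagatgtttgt
Slc22a26, a growth hormone-repressed transporter gene, minus strand, chr19:7802618-7802917: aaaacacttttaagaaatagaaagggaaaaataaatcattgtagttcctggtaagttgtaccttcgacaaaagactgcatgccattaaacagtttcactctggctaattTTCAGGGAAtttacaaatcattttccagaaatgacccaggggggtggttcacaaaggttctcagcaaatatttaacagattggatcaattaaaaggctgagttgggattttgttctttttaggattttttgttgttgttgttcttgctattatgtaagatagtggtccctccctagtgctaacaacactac
Gbp2, an interferon-gamma GTPase gene, plus strand, chr3:142620413-142620712: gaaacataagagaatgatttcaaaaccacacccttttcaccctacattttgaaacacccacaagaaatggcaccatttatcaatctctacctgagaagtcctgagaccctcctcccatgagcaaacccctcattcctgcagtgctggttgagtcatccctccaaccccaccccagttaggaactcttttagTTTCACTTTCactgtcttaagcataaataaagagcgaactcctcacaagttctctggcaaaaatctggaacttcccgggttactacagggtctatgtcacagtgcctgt
Ciart, a clock repressor gene, minus strand, chr3:95882179-95882478: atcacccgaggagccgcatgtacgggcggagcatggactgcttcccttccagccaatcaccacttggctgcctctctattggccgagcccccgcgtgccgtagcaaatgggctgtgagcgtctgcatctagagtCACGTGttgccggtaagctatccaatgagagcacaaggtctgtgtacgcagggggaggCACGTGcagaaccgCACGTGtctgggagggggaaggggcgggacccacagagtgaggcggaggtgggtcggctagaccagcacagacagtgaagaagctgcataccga

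The match begins 228 bases before the start in C8a, 141 before it in Slc22a26 and 59 before it in Gbp2, and Ciart holds 3 E-boxes of which the first begins 116 bases before the start. The STAT letters stood in 9.55% of all genes' promoters, in 2 of 23 genes driven by pulsatile growth hormone and in 4 of 19 repressed by it (Fmo2, Sult3a1, A1bg and Slc22a26). Of the 6 lists searched, the interferon-gamma GTPase genes held them most often (7 of 17), and their inducer acts through another STAT factor. The interferon letters stood in 3.99% of all genes' promoters, in 11 of 17 interferon-gamma GTPase genes and in 13 of 21 type I interferon genes. E-boxes stood in 8.09% of all genes' promoters and in 7 of 22 clock genes. A gene with several starts counted once if any of its promoters matched. These are counts of letters, and binding was not measured.

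The 34 libraries held 22.8 to 45.1 M counts at 3 months (median 31.2) and 25.8 to 44.4 M at 28 months (median 36.8). The liver label held in all of them: Alb, the main plasma protein of hepatocytes, lay between 39700 and 79800 CPM at 3 months and between 14000 and 92200 CPM at 28 months, and its difference missed the threshold (0.22, SE 0.12, adjusted p = 0.108). 5 livers of 28 months had the lowest likeness to their age group and are called those that stand apart, a choice made after seeing the data. Their median correlation with the other livers of 28 months was 0.9478 in replicate 14, 0.956 in replicate 9, 0.9593 in replicate 4, 0.9624 in replicate 2 and 0.9639 in replicate 10. Replicate 14 had the lowest Alb and was the old liver with 9510 CPM of Saa1 and 40.4 CPM of Snap25, a neuronal gene at 0 in most livers. Replicate 9 had 929 CPM of Marco, a macrophage receptor, and replicate 4 had 78.5 CPM of Cd79a, a B cell gene. Of the young livers, replicates 12, 16, 13, 15 and 10 had median correlations of 0.9635 to 0.9749 with their age group, against 0.9832 or more in the other 11. Replicate 12 was high in immune genes (its sums are given with those lists). Replicates 10, 13, 15 and 16 were low in Scd1 (2100 to 4730 CPM, against 7520 to 27700 in the other 12 young livers) and high in endoplasmic reticulum stress genes, as given with those lists. Without these 5 young livers, a choice also made after seeing the data, 59% of 15780 genes were called, 31% higher and 28% lower at 28 months. Replicates 17 and 3, at 0.9643 and 0.9646, came close to replicate 10, so the choice of 5 is not sharp. Without all 7 old livers 8282 genes were called, 4321 higher and 3961 lower. Counts without the 5 old livers, or without the 5 young ones, are given beside the lists that moved most.

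Of 15579 genes tested, 61.9% were called, with 31.9% higher and 30% lower. Most differences were small. The median size of a called difference was 0.45 on the log2 scale, and 5833 called genes differed by less than 1.5-fold. Large differences lay on the side of higher genes: 562 called genes were at least 4-fold higher at 28 months and 112 at least 4-fold lower. At the 2-fold level 11.9% of tested genes were higher and 2.38% lower. Only 1.35% of tested genes had levels that did not overlap between the groups, 98 of them higher in every old liver and 113 lower. The direction was the same in each of the 3 preparations for 95.6% of called genes and for 72.6% of all tested genes. Fitted alone, preparations 1, 2 and 3 called 6198, 2457 and 6721 genes. Without the 5 livers that stand apart, 4365 genes were higher and 4576 lower, and 8334 of the called genes were called again.

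**Figure D1:**
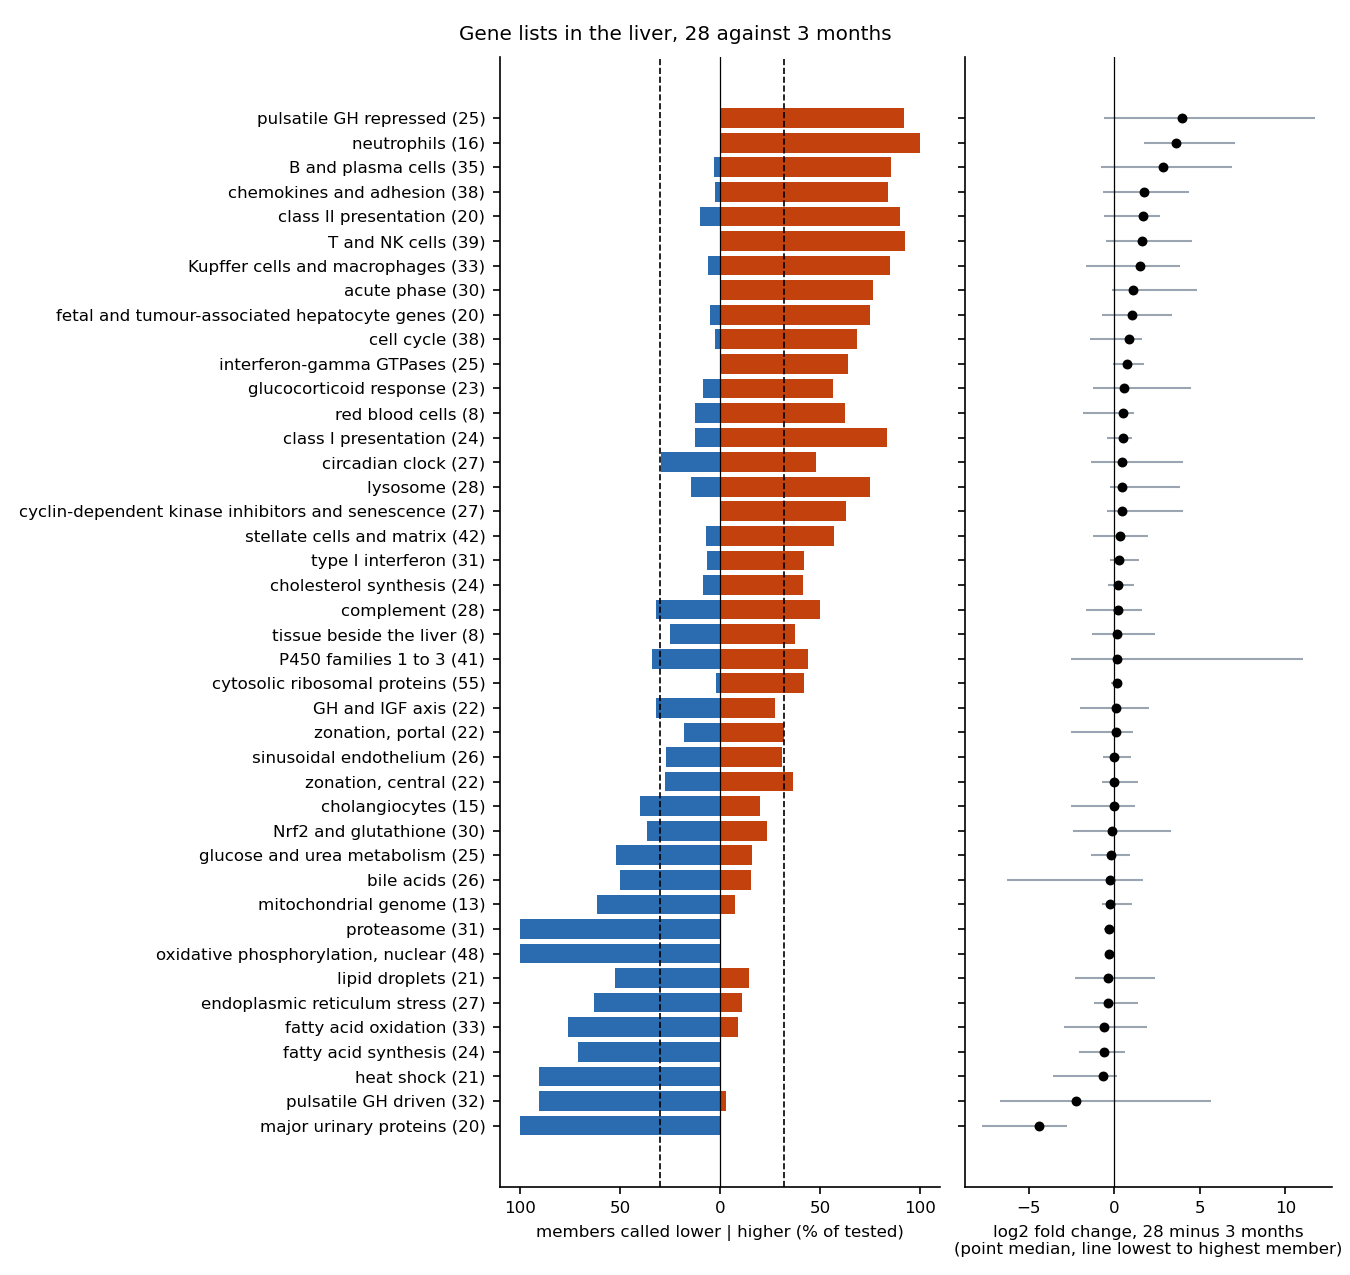
Share of tested members of each gene list called lower (blue bars to the left) and higher (orange bars to the right) at 28 months, in % of the members tested (number in parentheses), with dashed lines at the share over all tested genes (30% lower, 31.9% higher). The right panel gives the log2 fold change of the list's median member (point) and of its lowest and highest members (line). Genes repressed by pulsatile growth hormone, neutrophil and B cell genes lie at one end, and the major urinary protein and growth hormone-driven genes at the other.

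Genes that pulsatile growth hormone drives in hepatocytes were lower. Of 32 genes listed as such 29 fell and 1 rose, with a median of -2.26 against 0.01 over all tested genes. In 14 of them the groups did not overlap (0.725% of all tested genes were lower without overlap). Their summed level was 28200 to 47500 CPM at 3 months and 5090 to 21500 CPM at 28 months, so each of the 18 old livers lay below the lowest young liver. The highest old sum was that of replicate 10, and without the 5 livers that stand apart the highest was 11300 CPM.

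Cyp2d9, a male steroid hydroxylase, had 1000 to 1590 CPM at 3 months (median 1400) and 64.9 to 718 CPM at 28 months (median 188). No old liver reached the lowest young liver, and the fold change was -2.57 (SE 0.20, adjusted p = 4.4e-18). Gstp1, a glutathione transferase that is higher in male livers (chr19:4035407-4037985, minus strand, in the GENCODE M21 annotation of GRCm38), fell from 1080 to 2210 CPM (median 1350) to 178 to 618 CPM (median 242), again with no overlap. Its fold change was -2.40 (SE 0.13, adjusted p = 7e-26), and its medians of 1150, 895 and 350 CPM at 9, 15 and 24 months lay in between. Reads of Gstp1 may be shared with its near-identical copy Gstp-ps, whose fold change was -2.42, so the amount for either copy is uncertain.

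Cyp4a12a, an androgen- and growth hormone-responsive fatty acid hydroxylase, had 116 to 432 CPM at 3 months (median 312) and 0.541 to 107 CPM at 28 months (median 3.03). The groups did not overlap, and the fold change was -4.61 (SE 0.54, adjusted p = 2.6e-11). Serpina1e, a member of the alpha-1 antitrypsin family made in male liver, had 4110 to 11300 CPM at 3 months (median 6350) and 117 to 3510 CPM at 28 months (median 561). It fell by 2.81 (SE 0.32, adjusted p = 1.1e-11) in a family of near-identical genes among which reads may be split. The neighbouring pseudogene Serpina4-ps1 had 57.7 to 1190 CPM at 3 months (median 133) and 0.0248 to 25.2 CPM at 28 months (median 0.549), a fold change of -6.88 (SE 0.70, adjusted p = 1.8e-13). Serpina9 fell by 4.09 on the same scale.

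Sult2a8, a bile acid sulphotransferase of male liver, fell from a median of 805 CPM (574 to 1120) to 125 CPM (18.7 to 520), without overlap. Bcl6, a repressor of female genes in male liver, had 9.92 to 119 CPM at 3 months (median 92.8) and 6.25 to 65.1 CPM at 28 months (median 10.7). The Bcl6 groups overlapped, and the fold change was -2.0 (SE 0.39, adjusted p = 9.3e-06). C8a, whose promoter is shown above, had 735 to 1470 CPM at 3 months (median 892) and 189 to 992 CPM at 28 months (median 541), with overlap and a fold change of -0.79 (adjusted p = 8.9e-07). The gene on the list that rose was Hao2, a peroxisomal hydroxy acid oxidase. It went from 0 to 0.167 CPM at 3 months to 1.04 to 17.2 CPM at 28 months (adjusted p = 3e-16). With young livers at no less than 3 counts, its mean level was at least 38.4-fold higher. Hao2 was at or under 3 counts in 9 of the young livers. These young levels are not those of a gene kept on in male liver, so its place on this list is doubtful. All 20 tested genes of the major urinary proteins, pheromone carriers also driven by the pulses and too alike to be counted apart, fell. Their sum went from a median of 11800 CPM to 486 CPM.

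Genes that the pulses repress moved the other way. Of 25 tested, 23 rose and none fell, the median was 3.96 and stayed at 3.96 with genes at 0 in young livers set to their lower bound, and 9 did not overlap between the groups (0.629% of all tested genes were higher without overlap). 6 further symbols of the list did not enter the test. The list's sum, led by its abundant members, was 144 to 1500 CPM at 3 months (median 986) and 556 to 3590 CPM at 28 months (median 1450), and 9 of the 18 old livers lay above every young one.

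Cux2, a repressor of male genes that is normally limited to female liver (chr5:121856366-122050102, minus strand), had 0.252 to 0.62 CPM at 3 months (median 0.496) and 0.293 to 105 CPM at 28 months (median 31.4). It stayed within the young range only in replicate 10 and rose by 6.18 (SE 0.57, adjusted p = 2.7e-15). With each young liver taken at no less than 3 counts, the mean of Sult3a1, a female sulphotransferase, was at least 91.4-fold higher.

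The organic anion transporter gene Slc22a29 (chr19:8160165-8218900, minus strand) had 0.0657 to 0.572 CPM at 3 months (median 0.25) and 2.3 to 6.03 CPM at 28 months (median 4.19). The groups lay apart with a narrow spread (3.96, SE 0.23, adjusted p = 1.3e-25), and medians of 0.625, 0.921 and 2.01 CPM at 9, 15 and 24 months came in order of age. Its neighbour Slc22a27 rose by 5.51 (SE 0.34, adjusted p = 9.4e-24). These transporters are near-identical copies in a cluster, so counts of a single member are uncertain. Cyp2a4, a female steroid hydroxylase, rose from a median of 0.814 CPM (0.219 to 1.34) to 15.2 CPM (1.66 to 72.1), without overlap and with a fold change of 4.47 (SE 0.46, adjusted p = 2.4e-13). Cyp2b9 rose by 5.55.

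Replicate 10 had the highest old level of 4 driven genes, with 48 CPM of Hsd3b5, 144 of Slco1a1, 718 of Cyp2d9 and 618 of Gstp1. It had the lowest old level of the repressed genes Cyp2b13 (1.98 CPM) and Cux2 (0.293 CPM). Replicate 10 was not the lowest for every repressed gene: Cyp2a4 was at 5.95 CPM there and at 1.66 CPM in replicate 14. Its clock score, described below, was -1.55 and was the lowest of the old group. Without the 5 livers that stand apart, 30 of the 32 driven genes were lower and 23 of the 25 repressed genes higher. With the clock score as a covariate these counts were 28 and 22.

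**Figure D2:**
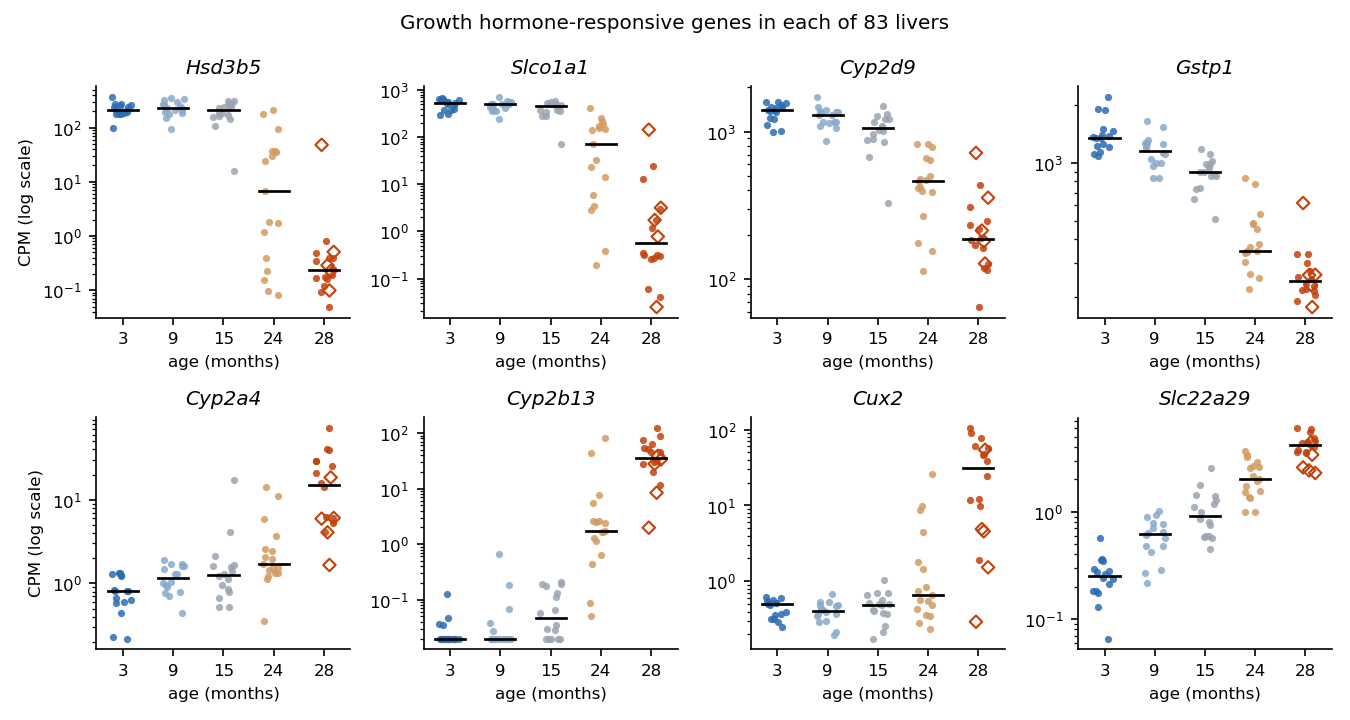
CPM (log scale) of 4 genes driven by pulsatile growth hormone (Hsd3b5, Slco1a1, Cyp2d9, Gstp1) and 4 repressed by it (Cyp2a4, Cyp2b13, Cux2, Slc22a29) in each of 83 livers by age in months. Black bars are medians, open diamonds are the 5 livers of 28 months that stand apart, and values under 0.02 CPM are drawn at 0.02. Cyp2d9 lies at 1000 to 1590 CPM at 3 months and at 64.9 to 718 CPM at 28 months, and Cyp2a4 at 0.219 to 1.34 CPM against 1.66 to 72.1 CPM.

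The growth hormone and IGF axis itself did not move in one direction (6 of 22 genes higher, 7 lower, median 0.09). These shares (27.3% and 31.8%) are near the 31.9% and 30% of all tested genes. Ghr, the receptor, fell from 379 to 741 CPM (median 547) to 199 to 481 CPM (median 347), with overlap (-0.67, SE 0.08, adjusted p = 4.1e-11). Prlr, the prolactin receptor and a female-biased gene, rose from 64.8 to 152 CPM (median 101) to 123 to 275 CPM (median 209), with overlap and a fold change of 0.99 (SE 0.12, adjusted p = 8.9e-11). Differences of other central genes missed the threshold: Igf1, the growth factor that hepatocytes release, stood at medians of 494 and 501 CPM (-0.09, adjusted p = 0.302), Stat5b at -0.15 (adjusted p = 0.163) and Socs2, a feedback inhibitor, at 0.41 (adjusted p = 0.234). The liver transcription factor genes Onecut1 and Foxa1 fell by 1.56 and 1.17.

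The smallest p-values belonged to genes whose groups lay apart. Hsf2bp, best known from meiotic recombination (chr17:31944769-32036349, minus strand), had 0.146 to 1.05 CPM at 3 months (median 0.426) and 2.88 to 7.13 CPM at 28 months (median 4.81). Dmrta1, a DM-domain transcription factor gene (chr4:89679436-89694772, plus strand), had 0.12 to 0.807 CPM (median 0.394) and 2.07 to 5.15 CPM (median 3.57). Both rose without overlap, Hsf2bp by 3.35 (SE 0.19, adjusted p = 9.3e-26) and Dmrta1 by 3.08 (SE 0.17, adjusted p = 1.1e-25), and both were already higher at the ages between, with medians at 9, 15 and 24 months of 1.72, 2.99 and 5.65 CPM for Hsf2bp and of 1.45, 2.86 and 3.87 CPM for Dmrta1. Enpp1, an ectoenzyme that makes pyrophosphate (chr10:24637914-24712159, minus strand), had 20.1 to 31.2 CPM at 3 months (median 25.2) and 37.6 to 64.8 CPM at 28 months (median 50.6). No old liver was as low as a young one for Enpp1 (1.03, SE 0.06, adjusted p = 2.2e-25). Fam19a2, a secreted chemokine-like protein gene (chr10:123263996-123741204, plus strand), rose from a median of 1.26 CPM (0.46 to 2.77) to 10.9 CPM (5.92 to 14.3), by 2.99 (SE 0.18, adjusted p = 7.5e-24). Olfr701, annotated as an olfactory receptor (chr7:106814129-106821472, plus strand), was at or under 3 counts in all 16 young livers and at 0.822 to 4.06 CPM in the old ones, at least 20.4-fold higher.

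Among lower genes with small p-values, Scp2, the sterol carrier protein and thiolase of peroxisomes (chr4:108043839-108144998, minus strand), had 2790 to 4180 CPM at 3 months (median 3420) and 781 to 2750 CPM at 28 months (median 1190). Hao1, the peroxisomal glycolate oxidase (chr2:134497361-134554368, minus strand), had 236 to 379 CPM (median 293) and 75.8 to 189 CPM (median 117). Neither gene overlapped between the groups. Scp2 fell by 1.31 (SE 0.10, adjusted p = 1.3e-19) and Hao1 by 1.32 (SE 0.10, adjusted p = 8.5e-20). Cdh1, the adhesion protein E-cadherin of periportal hepatocytes and bile ducts, fell from a median of 31.3 CPM (19.9 to 50.8) to 3.5 CPM (1.91 to 34.2), by 2.57 (SE 0.24, adjusted p = 1e-14). Its medians at 9, 15 and 24 months were 20.1, 12.5 and 4.69 CPM. Of the 15 tested bile duct markers, Cdh1 included, 3 were higher and 6 lower, with a median of -0.05, and without the 5 livers that stand apart none was higher and 8 were lower.

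Fatty acid oxidation and peroxisomal genes fell as a group: 25 of 33 were lower and 3 higher, with a median of -0.64. Fabp1, the main fatty acid carrier of hepatocytes, had 1430 to 4830 CPM at 3 months (median 3370) and 263 to 1460 CPM at 28 months (median 701). The ranges met only at their ends, and Fabp1 fell by 2.06 (SE 0.20, adjusted p = 1.7e-14). Cpt2, which releases fatty acids inside mitochondria, fell from a median of 162 CPM (106 to 223) to 76.8 CPM (42.4 to 112), by 1.06 (SE 0.10, adjusted p = 9.2e-15). Acaa1b, a peroxisomal thiolase, fell from a median of 1380 CPM (383 to 1920) to 190 CPM (101 to 748), by 2.12 (SE 0.24, adjusted p = 9.9e-12), and Acot1, an acyl-CoA thioesterase, from 31.5 CPM (3.84 to 38.8) to 2.32 CPM (0.644 to 10.6). The transcription factor Ppara, which drives many of these genes, stood at -0.30 (adjusted p = 0.106), and the entry enzyme Cpt1a at -0.11 (adjusted p = 0.411). Creb3l3, a partner of Ppara, fell by 0.94. The members that rose were Ppargc1a, a coactivator (1.07), and the thioesterases Acot3 (1.9) and Acot4 (0.68).

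Fatty acid synthesis genes were lower too (17 of 24 lower and none higher, median -0.64), with wide spread in both groups. Me1, the malic enzyme that supplies NADPH, had 96.7 to 479 CPM at 3 months (median 349) and 27.4 to 176 CPM at 28 months (median 59.8), and fell by 2.09 (SE 0.23, adjusted p = 3.5e-12). Scd1, the stearoyl-CoA desaturase, had 2100 to 27700 CPM (median 15100) and 958 to 17900 CPM (median 6120). The Scd1 groups overlapped over most of their range, and the difference was -1.03 (SE 0.26, adjusted p = 0.00042). This call was lost with the clock score as a covariate (-0.66, adjusted p = 0.0691), with the replicate block (-0.66, adjusted p = 0.106), in preparation 2 alone (-1.01, adjusted p = 0.157) and in preparation 3 alone (-0.25, adjusted p = 0.674). Leaving out the 5 young livers of lowest correlation gave -1.47 (adjusted p = 1.1e-07). In the fit without the 5 livers that stand apart 16 genes of this list were lower and 1 higher. Fasn, the fatty acid synthase, fell by 0.68 (adjusted p = 0.00152), while its regulator Srebf1 stood at -0.07 (adjusted p = 0.739).

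Of 21 lipid droplet and lipolysis genes 11 fell and 3 rose (median -0.39). Plin2, the main coat protein of droplets in hepatocytes, fell from 325 to 665 CPM (median 486) to 86.1 to 358 CPM (median 184), with a small overlap (-1.34, SE 0.12, adjusted p = 1.1e-15). Fitm2, which takes part in droplet budding, fell from 51.6 to 79.9 CPM (median 67.2) to 24.4 to 47.3 CPM (median 35.9), with none (-0.92, SE 0.08, adjusted p = 2.4e-16). G0s2, an inhibitor of lipolysis, fell by 2.33 (SE 0.28, adjusted p = 6.6e-11), and Mgll, the monoglyceride lipase, by 1.24. The lipoprotein lipase gene Lpl (1.15), the fatty acid receptor gene Cd36 (0.83) and Cidea (2.38) were the members that rose, Cidea with medians of 0.0624 and 0.0534 CPM in the groups.

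In glucose and urea metabolism 13 of 25 genes fell and 4 rose (median -0.19). Pygl, the liver glycogen phosphorylase, fell from 392 to 587 CPM (median 515) to 196 to 369 CPM (median 275), without overlap (-0.88, SE 0.09, adjusted p = 3e-14). Ppp1r3c, a glycogen-targeting subunit of protein phosphatase 1, fell by 1.26, and G6pc, which releases free glucose, by 1.29. Pck1, the gluconeogenic carboxykinase, was higher (0.90, adjusted p = 0.0102), as was the urea cycle gene Asl (0.72, adjusted p = 8.6e-06). With the clock score as a covariate 1 gene of this list was higher and 13 lower.

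Bile acid genes were more often lower than higher (13 of 26 against 4, median -0.24). Cyp8b1, which sets the share of cholic acid, fell by 1.31, and Cyp7b1 of the alternative pathway, which is male-biased, by 1.57. Cyp7a1, the rate-limiting enzyme of bile acid synthesis, had 22.2 to 302 CPM at 3 months (median 78.7) and 35.1 to 279 CPM at 28 months (median 108), and its difference missed the threshold (0.34, adjusted p = 0.337). Abcb11, the canalicular export pump, fell from a median of 772 CPM (599 to 1020) to 445 CPM (251 to 831), by 0.79 (SE 0.09, adjusted p = 2.9e-11). Abcc4, a basolateral efflux pump, had 1.79 to 4.5 CPM at 3 months (median 2.7) and 4.55 to 12.9 CPM at 28 months (median 9.22). It rose in all old livers relative to all young ones (1.59, SE 0.15, adjusted p = 2.3e-14), and Slco1a4, an uptake transporter, rose by 1.69.

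In cholesterol synthesis 10 of 24 genes were called higher and 2 lower (median 0.22), and this split was not kept without 5 young livers. The sum of the list was 2180 to 3530 CPM in young replicates 10, 13, 15 and 16 and 5210 to 7380 CPM in the other 12, with an old median of 6130 CPM. Without the 5 young livers of lowest correlation 6 genes were higher and 6 lower (median -0.05). Sqle, the squalene epoxidase, had 37.6 to 147 CPM at 3 months (median 112) and 46 to 262 CPM at 28 months (median 171), with wide overlap (0.65, SE 0.16, adjusted p = 0.000334; 0.43, adjusted p = 0.0166, without those young livers). With the clock score as a covariate 3 of the 24 genes were called, all higher, and without the 5 livers that stand apart 10 were higher and none lower.

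P450 enzymes of families 1 to 3, which oxidise drugs and steroids, had 18 of 41 genes higher and 14 lower (43.9% and 34.1%, median 0.12), against 31.9% and 30% over all tested genes, and part of this list is also in the growth hormone lists. Cyp2f2, a periportal enzyme, fell from 747 to 1240 CPM (median 979) to 110 to 604 CPM (median 379), without overlap (-1.35, SE 0.13, adjusted p = 4.8e-15). Cyp2a5, a coumarin hydroxylase, rose from a median of 173 CPM (79.2 to 350) to 530 CPM (189 to 1650), by 1.79 (SE 0.22, adjusted p = 1.8e-10), and Cyp2c39 rose by 3.08. Among the abundant central enzymes Cyp1a2 fell by 0.64 and Cyp3a11 by 0.53, and Cyp2e1 stood at 0.06. Of 22 periportal genes 7 were higher and 4 lower (median 0.08), and of 22 genes around the central vein 8 were higher and 6 lower (median 0).

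Of 30 Nrf2 target and glutathione genes 7 were higher and 11 lower (23.3% and 36.7%, median -0.16), against the same 31.9% and 30%. Mgst1, the microsomal glutathione transferase, fell from 2330 to 3460 CPM (median 2840) to 959 to 2200 CPM (median 1650), without overlap (-0.83, SE 0.08, adjusted p = 4.8e-15), and Gclc, the rate-limiting enzyme of glutathione synthesis, fell by 1.03. Hmox1, the haem oxygenase of hepatocytes and macrophages, rose from a median of 28.3 CPM (19.9 to 56.6) to 70.1 CPM (42.2 to 271), by 1.71 (SE 0.22, adjusted p = 2.5e-10), and Nqo1, a quinone reductase, from 7.48 CPM (3.68 to 10.7) to 15.3 CPM (8.75 to 18.4), by 0.98 (adjusted p = 4.7e-11). The regulator gene Nfe2l2 stood at -0.08 (adjusted p = 0.335).

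Acute phase proteins, secreted by hepatocytes under interleukin 6 signals, rose: 23 of 30 were higher and none lower, with a median of 1.09. Their summed level was 25300 to 88300 CPM at 3 months (median 31200, highest in replicate 15) and 30300 to 110000 CPM at 28 months (median 54700), so the groups overlapped. Hpx, the haem scavenger haemopexin, had 3180 to 12300 CPM at 3 months (median 3800) and 5620 to 18000 CPM at 28 months (median 11400) and rose by 1.21 (SE 0.19, adjusted p = 8.5e-08). Hp, haptoglobin, had 1740 to 10900 CPM (median 2290) and 3430 to 13400 CPM (median 7300), a rise of 1.14 (SE 0.24, adjusted p = 3.7e-05). In both genes most old livers were above most young livers, with 1 or more young livers inside the old range.

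Orm2, a serum orosomucoid, had 5.91 to 312 CPM at 3 months (median 12.9) and 35.4 to 2230 CPM at 28 months (median 424). Lcn2, the iron-siderophore binder lipocalin 2, had 2.15 to 208 CPM (median 4.3) and 27.5 to 1110 CPM (median 351). Both rose with large spread, Orm2 by 3.46 (SE 0.69, adjusted p = 1.3e-05) and Lcn2 by 4.06 (SE 0.74, adjusted p = 2.6e-06), and reads of Orm2 may be shared with Orm3 (4.85). Mt1, a metallothionein, rose from a median of 4.58 CPM (2.42 to 111) to 214 CPM (6.44 to 885), by 4.50 (SE 0.79, adjusted p = 1.1e-06). The serum amyloid genes were near the threshold (Saa1 1.84, adjusted p = 0.0486, and Saa2 2.26, adjusted p = 0.0354), with replicate 14 highest at 9510 and 8810 CPM. Not every acute phase gene was called: Crp stood at -0.17 (adjusted p = 0.144) and Fgb, a fibrinogen chain, at 0.21 (adjusted p = 0.233). Among abundant plasma protein genes Trf, transferrin, rose from a median of 14300 CPM (11500 to 17900) to 21800 CPM (16100 to 28200), by 0.57 (SE 0.08, adjusted p = 1.7e-08), and Serpina3k, a growth hormone-responsive inhibitor, fell from 11100 CPM (8800 to 14600) to 4010 CPM (2440 to 7760), by 1.47 (SE 0.13, adjusted p = 2.2e-15). Mat1a, the methionine adenosyltransferase of hepatocytes, was also among the largest gains in mean level and rose from a median of 2390 CPM (1610 to 4110) to 4420 CPM (2180 to 8380).

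Of 28 complement genes 14 were higher and 9 lower (50% and 32.1%, median 0.20), against 31.9% and 30% over all tested genes. The lower share is thus near that of all genes. The central component C3 rose from a median of 6460 CPM (5670 to 15600) to 12900 CPM (8330 to 20200), by 0.84, the macrophage-made C1qc by 1.41, and Mbl2, a lectin that starts the cascade, from 316 CPM (266 to 355) to 433 CPM (315 to 526), by 0.49 (SE 0.07, adjusted p = 2.4e-08). Among the members that fell were genes of the terminal attack complex. C8b had 256 to 411 CPM at 3 months (median 330) and 93.7 to 243 CPM at 28 months (median 148), with no overlap (-1.18, SE 0.09, adjusted p = 4.2e-18), C6 fell by 1.66 and C9 by 0.61. C8a and C9 are also on the growth hormone-driven list.

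Immune cell genes were higher across lineages, and their summed levels are given with their spread because a few libraries carry much of it. B and plasma cell genes were higher in 30 of 35 cases and lower in 1, with a median of 2.83 (28 and 2 without the 5 livers that stand apart). Their sum was 554 to 1040 CPM at 3 months (median 661) and 741 to 2930 CPM at 28 months (median 1030), and 8 of the 18 old livers lay above every young liver. In young livers Igkc, Ighm and Cd79a, given next, made up little of this sum. It was 849 to 1040 CPM in young replicates 10, 13, 15 and 16 and 554 to 794 CPM in the other 12. The list also holds Xbp1, Derl3, Sdc1 and Cd38, and the sum is not read as an amount of B cells. Igkc, the kappa light chain constant gene, had 6.14 to 28.6 CPM at 3 months (median 10.4) and 24.6 to 558 CPM at 28 months (median 108). It rose by 3.53 (SE 0.40, adjusted p = 5.6e-12), with medians of 30.8, 58.4 and 83.6 CPM at 9, 15 and 24 months. Ighm, the IgM heavy chain, rose from a median of 21.5 CPM (4.44 to 49.1) to 102 CPM (35.1 to 1100), by 3.29 (SE 0.46, adjusted p = 3.8e-09). Fcrl5, a receptor of B and plasma cells, was at or under 3 counts in all 16 young livers and was at least 38.8-fold higher at 28 months. Cd79a, part of the B cell receptor, rose by 3.01 (SE 0.54, adjusted p = 1.4e-06) from a median of 1.39 CPM (0.646 to 2.76) to 3.65 CPM (0.703 to 78.5), and the highest value is that of replicate 4. Of 382 variable, diversity and joining segments of immunoglobulins 81 passed the filter on low counts, and all 81 were called higher. A segment that passed through the older livers, where it is high, had to differ, so this count carries no weight of its own. With only the livers of 3 and 28 months in the fit, 21 segments were called. That fit filters by age too, so segments could pass through the old livers, and its count carries no weight either. The sum over the 81 segments that passed the filter was 5.36 to 23.4 CPM at 3 months (median 7.25) and 22.5 to 377 CPM at 28 months (median 69.4). This sum rests on the same selection. Segments share sequence, and single values are uncertain.

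T and NK cell genes were higher in 36 of 39 cases and none was lower (median 1.63), and without the 5 livers that stand apart 36 were higher and 1 lower. Their sum was 26.7 to 132 CPM at 3 months (median 32.9) and 53 to 234 CPM at 28 months (median 97.8). Young replicate 12 had the 132 CPM and the next young liver 37.7 CPM, so 5 old livers exceeded all young livers and 18 exceeded all others. Cd8a, the coreceptor of cytotoxic T cells, had 0.129 to 5.19 CPM at 3 months (median 0.308) and 1.3 to 18.1 CPM at 28 months (median 3.45) and rose by 3.04 (SE 0.43, adjusted p = 6.9e-09). Zap70, a kinase of T cell receptor signalling, rose from 3.24 to 9.71 CPM (median 4.44) to 5.65 to 14.8 CPM (median 11.2), by 1.24 (SE 0.11, adjusted p = 3.8e-15). The checkpoint receptor genes Pdcd1 and Ctla4, at or under 3 counts in 15 and 14 of the 16 young livers, were at least 5.6-fold and 9.71-fold higher. The helper T cell coreceptor gene Cd4 stood at -0.52 (adjusted p = 0.0615).

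Genes of Kupffer cells and macrophages were higher in 28 of 33 cases and lower in 2 (median 1.5). The sum was 1170 to 2770 CPM at 3 months (median 1390) and 1360 to 8080 CPM at 28 months (median 2280). The highest old sum belongs to replicate 9 and is 3790 CPM without the 5 livers that stand apart. The highest young sum belongs to replicate 12, and 6 old livers exceeded it while 15 exceeded the next, 1670 CPM. Vsig4, the complement receptor of resident Kupffer cells, had 27.4 to 81.1 CPM at 3 months (median 33.8) and 50.4 to 397 CPM at 28 months (median 91.8) and rose by 1.54 (SE 0.16, adjusted p = 1e-12). Trem2, a lipid-sensing receptor of recruited macrophages, rose from 0.191 to 2.04 CPM (median 0.484) to 1.69 to 30.9 CPM (median 2.82), by 2.89 (SE 0.33, adjusted p = 6.9e-12). Lyz2, the lysozyme of myeloid cells, rose by 1.88, and Clec4f, the most Kupffer-restricted of these, by 0.71. Gpnmb, a glycoprotein of lipid-laden macrophages, had 0.137 to 5.37 CPM (median 0.316) and 1.62 to 38.8 CPM (median 5.84) and rose by 3.80 (SE 0.45, adjusted p = 4e-11).

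Of 18 neutrophil genes 16 passed the filter on low counts, and all 16 were called higher (median 3.57). The granule genes Ngp, Mpo, Ltf and Camp were at or under 3 counts in 12, 14, 15 and 16 of the 16 young livers and passed through the older ones, where they had to differ, so this count carries no weight of its own. With only the livers of 3 and 28 months in the fit 13 were called, but genes could pass its filter through the old livers in the same way. The sum of the 16 genes was 8.46 to 246 CPM at 3 months (median 11.7) and 50.1 to 1550 CPM at 28 months (median 396). Young replicates 12 and 15, with 246 and 164 CPM, lay far above the other young livers, and 13 old livers exceeded both. Much of this sum is Lcn2, described above with the acute phase genes, so it is no measure of neutrophils alone. Lcn2 had 208 and 149 CPM in young replicates 12 and 15. It had 1110 of 1210 CPM in old replicate 14 and 705 of 1550 CPM in old replicate 3. These granule genes, made by maturing neutrophils in the marrow, were at least 61-fold, 47-fold, 39.6-fold and 31.3-fold higher in mean level, in that order, each with its highest value in replicate 3 of the old group. Without that liver they were at least 19-fold, 15.6-fold, 12.6-fold and 10.5-fold higher. The old medians of these genes were below 1 CPM (0.862 for Ngp, 0.67 for Mpo, 0.617 for Ltf and 0.261 for Camp), far below the means. The calprotectin genes S100a8 and S100a9, which other myeloid cells also express, rose by 3.67 and 3.52, and the receptor genes Csf3r and Cxcr2 by 1.73 and 2.64.

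**Figure D3:**
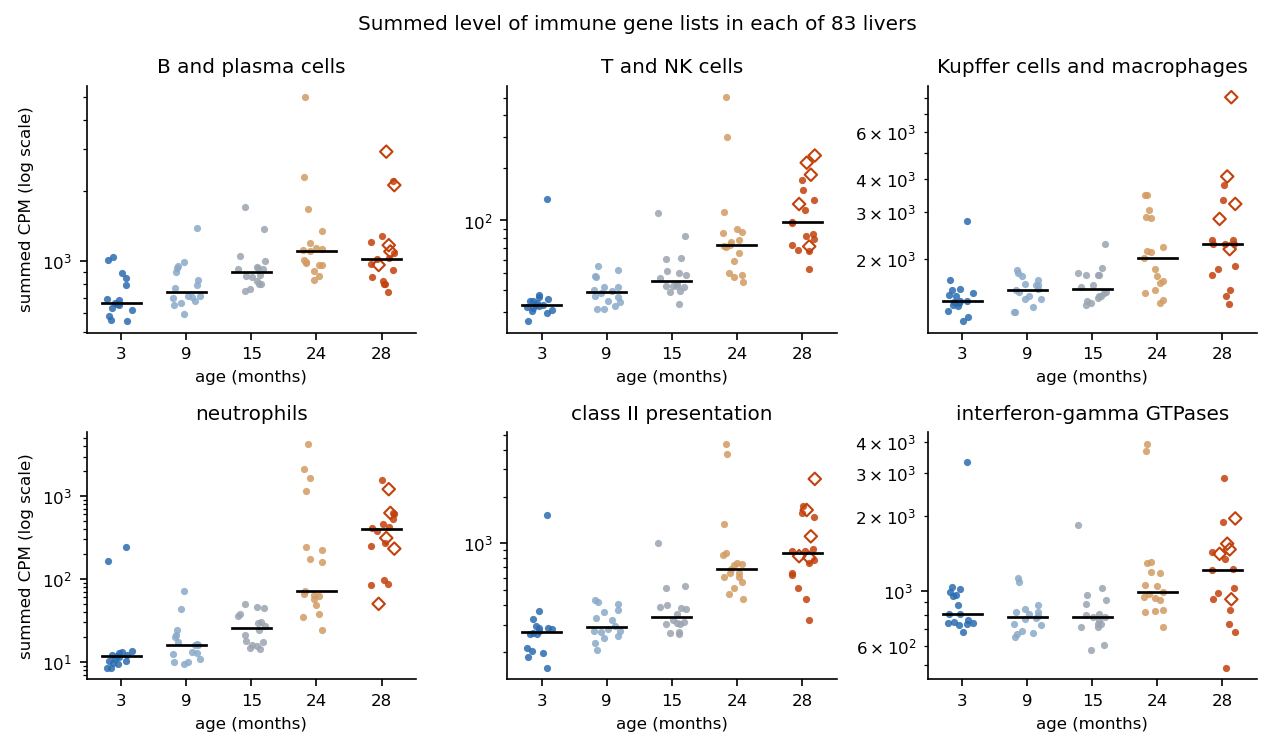
Summed CPM (log scale) of 6 immune gene lists in each of 83 livers by age in months, with black bars for medians and open diamonds for the 5 livers of 28 months that stand apart. The neutrophil sum has a median of 11.7 CPM at 3 months and 396 CPM at 28 months, and a young liver (replicate 12) lies near the old livers in the T cell, class II and interferon-gamma panels. The neutrophil sum includes Lcn2, which is also an acute phase gene.

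Chemokine, cytokine and adhesion genes were higher in 32 of 38 cases and lower in 1 (median 1.71). Cxcl13, the chemokine that draws B cells, had 1.64 to 12.5 CPM at 3 months (median 4.41) and 9.2 to 220 CPM at 28 months (median 69.6). It overlapped little between the groups and rose by 3.97 (SE 0.43, adjusted p = 2.1e-12). Ccl5, a product of T and NK cells, rose from a median of 0.968 CPM (0.519 to 11.5) to 9.12 CPM (3.76 to 38), by 3.00 (SE 0.47, adjusted p = 9.1e-08), and Vcam1 and Icam1, endothelial adhesion molecules, rose by 1.84 and 1.13. The exception was Ccl25, which fell by 0.68.

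Genes of class II presentation and dendritic cells were higher in 18 of 20 cases and lower in 2 (Cd209a and Zbtb46), with a median of 1.69. Cd74, the invariant chain, had 46.8 to 538 CPM at 3 months (median 92) and 109 to 925 CPM at 28 months (median 299) and rose by 1.69 (SE 0.30, adjusted p = 1.1e-06). The list's sum was 158 to 1520 CPM at 3 months and 320 to 2600 CPM at 28 months. The 1520 CPM is young replicate 12, and 4 old livers exceeded it while 17 exceeded the next young liver (367 CPM). Class I presentation genes were higher in 20 of 24 cases and lower in 3, by less (median 0.48). Psmb8, an immunoproteasome subunit, rose from a median of 34.9 CPM (30 to 91.7) to 64.8 CPM (38.5 to 128), by 0.86 (SE 0.16, adjusted p = 1.7e-06).

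The 2 interferon programmes differed in their counts, which was not tested as a difference. Of 25 interferon-gamma GTPase and related genes 16 were higher and none lower (median 0.73), and 12 were higher and none lower without the 5 old livers that stand apart. Gbp2, whose promoter is shown above, had 5.11 to 63.2 CPM at 3 months (median 7.52) and 9.96 to 70.5 CPM at 28 months (median 25.5) and rose by 1.64 (SE 0.32, adjusted p = 7.4e-06). No old liver's sum exceeded that of young replicate 12 (3320 CPM), and 10 exceeded the next young sum (1040 CPM). Cd274, the checkpoint ligand that interferon-gamma induces, rose by 1.72. Of 31 type I interferon genes 13 were higher and 2 lower (median 0.24). Zbp1, a sensor of nucleic acids, rose by 1.41 and Irf7, a driver of the response, by 0.72, while Ifit1 stood at 0.07 (adjusted p = 0.782) and Isg15 at -0.01 (adjusted p = 0.978). This list turned with the libraries: without the 5 old livers that stand apart 4 genes were higher and 6 lower, and without young replicate 12 17 were higher and 2 lower.

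Stellate cell and matrix genes were higher in 24 of 42 cases and lower in 3 (median 0.32). Dcn, the proteoglycan decorin of resting stellate cells and fibroblasts, had 139 to 190 CPM at 3 months (median 173) and 233 to 362 CPM at 28 months (median 297). Pdgfra, a receptor of the same cells, had 4.85 to 9.08 CPM (median 6.83) and 11 to 20.6 CPM (median 15.4). Both rose without overlap, Dcn by 0.81 (SE 0.05, adjusted p = 1.2e-21) and Pdgfra by 1.08 (SE 0.10, adjusted p = 2.2e-15), and Mmp14, a matrix protease, rose by 0.75. The fibrillar collagen genes did not move alike: Col1a1 was higher by 0.77 (adjusted p = 0.0313) and Col3a1 stood at 0.15 (adjusted p = 0.586), and the contractile marker Acta2 stood at 0.03 (adjusted p = 0.896). Without the 5 livers that stand apart 16 genes of this list were higher and 4 lower. Sinusoidal endothelial genes had a median of 0, with 8 of 26 higher and 7 lower. These shares (30.8% and 26.9%) are near the 31.9% and 30% of all tested genes. Those that rose were Selp (0.97), Cd34 (0.89), Cdh5 (0.57), Plvap (0.48), Vwf (0.47), Mrc1 (0.37), Pecam1 (0.25) and Rspo3 (0.13), and those that fell were Wnt2 (-0.69), Gata4 (-0.50), Oit3 (-0.40), Clec4g (-0.34), Gpr182 (-0.32), Dnase1l3 (-0.27) and Ptprb (-0.15).

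Cell cycle genes were higher in 26 of 38 cases and lower in 1 (median 0.86), and this count rested on few livers. Without the 5 livers that stand apart 7 were higher and 1 lower, and without young replicate 12, whose sum of 511 CPM compares with 234 CPM in the next young liver, 32 were higher. Mki67, the proliferation marker, rose by 1.62. Top2a, a topoisomerase of dividing cells, had 0.355 to 19.2 CPM at 3 months (median 1.74) and 0.384 to 25.1 CPM at 28 months (median 4.12), with nearly full overlap (1.48, SE 0.45, adjusted p = 0.00328). Inhibitors of cyclin-dependent kinases and senescence genes were higher in 17 of 27 cases and none was lower (median 0.42), and 14 were higher and 3 lower without the 5 livers that stand apart. Cdkn1c (1.60) and the p53 targets Phlda3 (1.5) and Eda2r (1.75) rose, and Cdkn1a, the p21 gene, stood at -0.44 (adjusted p = 0.183). Fetal and tumour-associated genes were higher in 15 of 20 cases and lower in 1. H19, an imprinted fetal RNA, rose from 0 to 0.409 CPM (median 0.158) to 0.503 to 1.9 CPM (median 0.903), by 2.38 (SE 0.32, adjusted p = 2e-09), whereas Afp, alpha-fetoprotein, fell by 0.72 (adjusted p = 0.000423). Without the 5 livers that stand apart 11 genes of this list were higher and 4 lower.

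Clock genes differed between the groups, and the labels used here give no time of death. Noct, a rhythmic gene of the deadenylase family (chr3:51224447-51251644, plus strand), had 2.71 to 33.2 CPM at 3 months (median 10.8) and 43 to 210 CPM at 28 months (median 142). All old livers were above all young ones (3.32, SE 0.27, adjusted p = 2.8e-17), and the medians of 19, 42.4 and 113 CPM at 9, 15 and 24 months lay in order of age. Per3, a repressor of the clock, had 0.788 to 8.57 CPM (median 1.68) and 2.43 to 98.3 CPM (median 15) and rose by 3.57 (SE 0.42, adjusted p = 2.5e-11). Ciart, with 3 E-boxes in the promoter shown above, rose from 0.0635 to 1.92 CPM (median 0.277) to 0.203 to 29.2 CPM (median 5.71), by 4.03, and Dbp by 2.91. The activators Arntl and Clock fell by 0.94 and 0.72. In all 13 of 27 clock and output genes were higher and 8 lower.

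A clock score, higher where Per3 and its like are high and Arntl is low, was -2.15 to 1.64 at 3 months (median -1.17), and its medians at 9, 15 and 24 months were -0.684, -0.741 and -0.649. At 28 months it was -1.55 to 4.85 (median 1.695). With this score as a covariate 7887 genes were called in the comparison of 28 with 3 months, 7362 of them shared with the fit without it. The clock list itself then had 4 genes higher and 4 lower, a drop that follows from a score made of its own members, and 6 of 23 glucocorticoid-responsive genes were higher in place of 13. Fkbp5, a glucocorticoid-induced cochaperone, rose by 1.25 without the score and was not called with it. Whether the hour of collection differed between the groups was not tested.

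**Figure D4:**
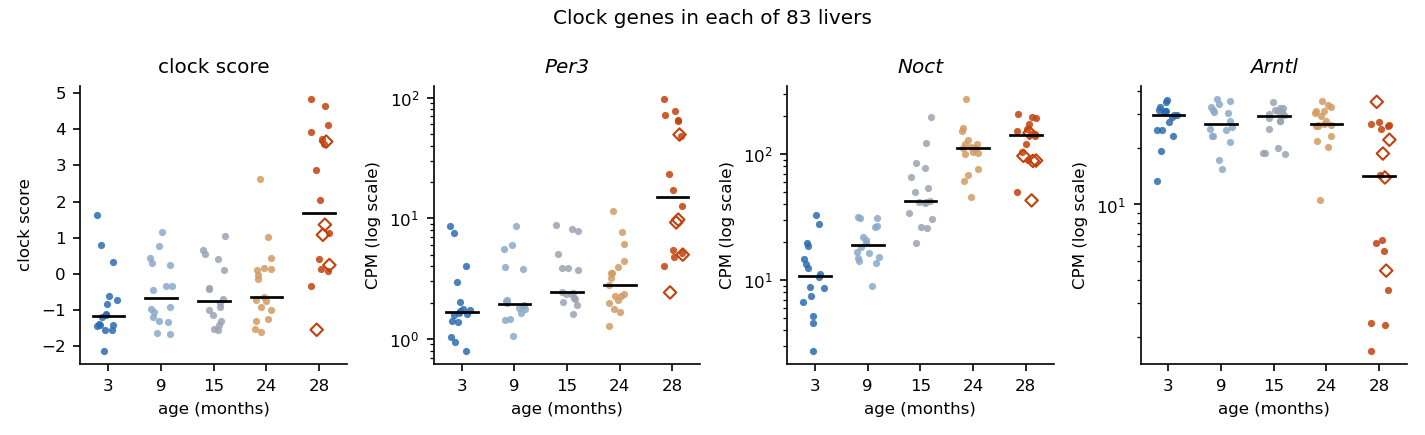
Clock score and CPM (log scale) of Per3, Noct and Arntl in each of 83 livers by age in months, with black bars for medians and open diamonds for the 5 livers of 28 months that stand apart. The score has medians of -1.17 at 3 months and 1.695 at 28 months, and Noct lies at 2.71 to 33.2 CPM in young livers and at 43 to 210 CPM in old livers.

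Heat shock genes fell: 19 of 21 were lower and none higher (median -0.67). Their sum was 3370 to 7490 CPM at 3 months (median 4540) and 2570 to 4050 CPM at 28 months (median 2950), and 16 of 18 old livers lay below the lowest young one. Hspa1b, an inducible Hsp70 gene whose reads may be shared with Hspa1a, had 6.04 to 69.1 CPM (median 17.4) and 0.529 to 6.74 CPM (median 1.59). The ranges barely met, and it fell by 3.58 (SE 0.34, adjusted p = 8.8e-15). Hsp90aa1, the inducible Hsp90, fell from a median of 217 CPM (122 to 624) to 103 CPM (51.7 to 210), by 1.21 (SE 0.18, adjusted p = 2.1e-08), the mitochondrial chaperonin gene Hspd1 by 0.56 and the regulator gene Hsf1 by 0.24. Of 27 genes of endoplasmic reticulum stress 17 were lower and 3 higher (median -0.40), among them Hspa5, the chaperone BiP, at -0.68 (SE 0.18, adjusted p = 0.000593). The sum of this list was 9160 to 11800 CPM in young replicates 10, 13, 15 and 16, 4390 to 7880 CPM in the other 12 young livers and 3650 to 7270 CPM in the old ones. Without the 5 young livers of lowest correlation 5 genes were lower and 3 higher (median -0.11), and Hspa5 was not called (-0.17, adjusted p = 0.374). The heat shock list then still had 19 genes lower and none higher (median -0.52), although its sum was higher in the same 4 young livers (4980 to 7490 CPM) than in the other 12 (3370 to 4730 CPM). The pancreatic gene Cela2a was also higher in these 4 (3.57 to 9.65 CPM) than in the other 12 (0.175 to 0.961 CPM). A sum of 8 genes of tissues beside the liver did not part them (26.2 to 38.6 and 23.4 to 41.8 CPM). What sets these 4 livers apart was not tested.

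All 31 tested proteasome genes fell, by a median of -0.30 and with every member between -0.61 and -0.17. Psmd2, a subunit of the regulatory particle, had 192 to 233 CPM at 3 months (median 209) and 106 to 178 CPM at 28 months (median 158), without overlap (-0.47, SE 0.04, adjusted p = 8.2e-15). Psmd11, a subunit of the same particle, fell from 98.6 to 134 CPM (median 126) to 52.5 to 103 CPM (median 78.8), by 0.61 (SE 0.06, adjusted p = 2.1e-14). The proteasome sum of 16 old livers lay below the lowest young one (2620 CPM), and all 31 members were also called lower without the 5 livers that stand apart and with the clock score as a covariate. All 48 nuclear genes of oxidative phosphorylation fell as well, with a median of -0.34 and members between -0.57 and -0.18. Of these, 45 were lower without the 5 livers that stand apart, and without all 7 of lowest correlation 39 were. Ndufb3, a complex I subunit, fell from a median of 41.4 CPM (30.7 to 51.5) to 27.5 CPM (19 to 34.6), by 0.55, and Cox7a2 of complex IV by 0.57. Of 13 mitochondrially encoded genes 8 were lower and 1 higher (5 and 1 without the 5 livers that stand apart), and mt-Cytb fell from a median of 10700 CPM (8070 to 11300) to 7030 CPM (3800 to 9100). The share of all counts from the mitochondrial genome had a median of 5.32% at 3 months and 4.375% at 28 months. CPM are shares of a library, so these even falls are relative to the other genes.

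Ribosomal protein genes were higher in 23 of 55 cases and lower in 1, by little (median 0.12), and none of them was called with the clock score as a covariate. Without the 5 young livers of lowest correlation 7 were higher. Lysosomal genes were higher in 21 of 28 cases and lower in 4 (median 0.43). Atp6v0d2, a subunit of the proton pump found in macrophages and other specialised cells, rose from 0.285 to 3.39 CPM (median 1.43) to 3.72 to 60 CPM (median 23.8), by 3.84 (SE 0.37, adjusted p = 1.3e-14). Several of the lysosomal genes with the largest rises (Ctss, Cd68, Gpnmb) are also macrophage genes, and the macrophage sum given above was higher in the same group. Lamp1, Lamp2, Lipa and Ctsf were the members that fell, each by at most 0.26.

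The brains of the same ages allow the change to be compared with that of another organ. The change from 3 to 28 months differed between liver and brain (15 and 18 brains) in 34.1% of 19537 genes, with 4363 more positive in liver and 2292 more negative. A brain of 28 months, replicate 15, stood apart with 11.5 M counts and a median correlation of 0.8578 with its age group, against 0.9773 or more in the other brains of these ages. Without it 7745 genes differed, 4261 more positive in liver and 3484 more negative. Nuclear genes of oxidative phosphorylation were more negative in liver in 40 of 48 cases, and in 44 without that brain, and their median change in brain was 0.20 and 0.02 respectively. For the proteasome genes 29 of 31 were more negative in liver, and all 31 without that brain, with brain medians of 0.12 and 0.03. Psmd2 stood at 0.04 in brain. For heat shock genes the difference was called in 16 of 21, and in 18 without that brain, with brain medians of -0.19 and -0.18. Other lists moved in brain as well. Without that brain 7.01% of 19527 genes were higher and 4.34% lower in brain at 28 months. In this fit 12 of 16 neutrophil genes were higher in brain (median 2.67) and 6 differed from liver, all more positive there, and 16 of 24 class I presentation genes were higher and 2 lower in brain (median 0.50), with 4 more positive and 5 more negative in liver.

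**Figure D5:**
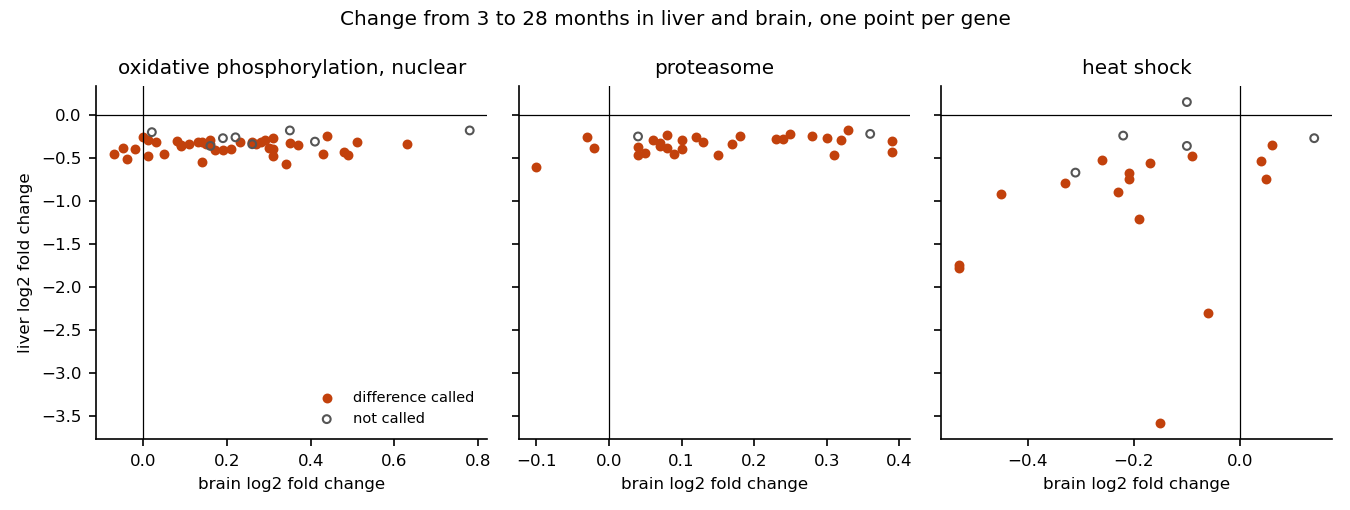
Log2 fold change from 3 to 28 months in liver (vertical axis) and brain (horizontal axis) for nuclear oxidative phosphorylation, proteasome and heat shock genes, 1 point per gene, from the fit with all 33 brains. Filled points mark genes whose change was called different between the organs (40 of 48, 29 of 31 and 16 of 21). All oxidative phosphorylation and proteasome points lie below 0 on the liver axis.

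Several genes with the widest gap between the organs are scarcely present in brain, so that their brain change is poorly measured. Serpina1e had brain medians of 0 CPM at both ages and a liver minus brain difference of -5.29. Lrtm2, a leucine-rich repeat membrane protein gene, was different: brain had 45.2 CPM at 3 months and 43.1 CPM at 28 months, while the liver was at or under 3 counts in all 16 young animals and at least 29.2-fold higher at 28 months. Its fitted difference between the organs was 6.67, which depends on the prior count. The 3 highest and 3 lowest differences were all called again without brain replicate 15.

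The comparison of 28 with 24 months asks what happened late. Of the tested genes 6.18% were higher and 9.13% lower at 28 months. Livers 13 and 10 of 24 months had the lowest median correlations with their age group (0.9321 and 0.9546). Their class II sums were 4380 and 3740 CPM and their T and NK cell sums 502 and 299 CPM, against at most 1340 and 112 CPM in the other livers of 24 months. Without these 2 livers, a choice made after seeing the data, 4649 genes (29.9%) were called in place of 2385, with 17% of 15572 genes higher and 12.8% lower. Of the 32 genes driven by pulsatile growth hormone 26 were lower and 1 higher, and of the 25 repressed by it 18 were higher and none lower, with medians for the change from 3 months of -1.04 and 1.99 at 24 months and -2.26 and 3.96 at 28 months. Cux2 was higher at 28 than at 24 months by 3.47 (adjusted p = 1.7e-07), whereas Serpina4-ps1 was lower by 3.97 (-5.02 without replicate 10 of the old group). Per3, a clock gene, was higher by 3.05, and Scd1 lower by 1.18. Without the 2 livers of 24 months the counts of driven genes were 28 lower and 1 higher, and of repressed genes 17 higher and none lower. Counts of immune genes changed without these livers. With all livers Cxcl13 was higher by 1.17 (adjusted p = 0.0232), 7 of 33 Kupffer cell and macrophage genes were higher and 4 lower, and 1 of 39 T and NK cell genes was higher. Without them Cxcl13 was higher by 1.62 (adjusted p = 0.00059), 22 macrophage genes were higher and 4 lower, and 23 T and NK cell genes were higher. Ccl5 stood at -0.20 (adjusted p = 0.798) with all livers and at 1.09 (adjusted p = 0.0109) without them, Cd74 at -0.17 (adjusted p = 0.737) and 0.56 (adjusted p = 0.0539), and Ighm at -0.49 (adjusted p = 0.473) and 0.18 (adjusted p = 0.759). With the clock score as a covariate 228 genes were called in place of 2385, and with only the livers of 24 and 28 months in the fit 1152 were called. The clock score itself differed between these ages, with medians of -0.649 and 1.695, so its part and that of age cannot be told apart here.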

How the data were processed

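The deposited tables hold raw read counts per gene and library, made by the authors from paired 100-base stranded polyA reads. Per the submitters' processing notes the tools were cutadapt 2.8, HISAT2 2.1.0, SAMtools 1.9 and featureCounts of Subread 2.0.1 on GRCm38.p6 (mm10). Whether counting used the strand, and how multi-mapped reads were treated, are not given in the sources used here, so overlapping and near-identical genes are uncertain. A symbol was given for 55144 of 55471 genes.

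The counts of all 83 livers were fitted together in edgeR 4.0.16 (R 4.3.3) with filterByExpr, TMM scaling, age and preparation as terms, and quasi-likelihood tests with Benjamini-Hochberg adjustment over 15579 genes. All ages share 1 estimate of the spread, to which a 15-month liver of 5.82 M counts contributes. The 28 minus 24 month contrast comes from the same fit, and the liver and brain changes were compared by an interaction term over 19537 genes. The SE of a fold change was taken as its size divided by the root of the F statistic. Alternatives used DESeq2 1.42.0, limma 3.58.1 with voom sample weights, RLE scaling, no filter, only the ages compared, no preparation term, each preparation alone, a replicate block, a clock score and each liver left out in turn. Leaving out the 5 or 7 old, 5 young, and 2 or 5 24-month livers of lowest correlation, each 24-month liver in turn, and a brain that stands apart, was chosen after seeing the data.

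The members, lists and tests were chosen with earlier results of these data known. Genes were named when called with a mean of at least 1 CPM over the 34 livers and the same direction in each preparation, and with a symbol that is no immunoglobulin segment, major urinary protein gene, Gm or Rik name: the 8 highest and 8 lowest fold changes, the 5 smallest p-values and the 5 largest changes in mean CPM in each direction, and the 3 smallest p-values of each list, to which key genes of each list were added whatever their values. For the 28 with 24 month and liver with brain comparisons the 3 highest and 3 lowest were named. Some genes that this rule selects are not reported here.

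No pair of livers agreed within sampling noise (lowest ratio of variance to noise 17.2). Same-numbered livers of 3 and 28 months are different animals and did not deviate together (r from -0.31 to 0.312 over 16 pairs). Each liver is taken as 1 mouse, as the labels number them. When tested on simulated data for 28 against 3 months over 15546 genes, the fit recovered 75.8% of 1.5-fold, 85.1% of 2-fold and 96.8% of 4-fold changes, with 5 false calls. For liver against brain over 18438 genes it recovered 42.4%, 76.2% and 100%, with 13 false calls, which were 8.61% of its calls. The simulations changed only a small share of genes, up and down in near equal number, with independent noise. They had no preparation effect and no livers that stand apart, so these rates need not hold for the real data. Lower bounds of folds take each young liver at no less than 3 counts.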

Additional observations from a re-analysis of the deposited data

Results flagged for a closer look

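The change from 3 months differed between 28 and 24 months, by the test of that difference, for 2385 genes, and for 4649 without livers 10 and 13 of 24 months. Among those named, A1bg (3.51) and Cux2 (3.47) were higher at 28 months on the log2 scale, and Hsd3b5 (-4.13), Slco1a1 (-3.98) and Serpina4-ps1 (-3.97) were lower. Single livers weigh on these values. Without replicate 14, at 106 CPM, A1bg stood at 1.93. Without replicate 10, the highest old liver for the genes that were lower, Hsd3b5 stood at -7.06, Slco1a1 at -5.35 and Serpina4-ps1 at -5.02. With each liver of 3, 24 and 28 months left out in turn, these 5 genes were called in each of the 51 fits (largest adjusted p 0.007, for A1bg).

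The change from 3 to 28 months differed between liver and brain, by the interaction test, for 6655 genes. On the log2 scale the difference, liver minus brain, was 9.73 for Cyp2b13, 6.67 for Lrtm2 and 6.55 for Ighg3, and it was -5.29 for Serpina1e, -5.27 for Cyp4a12b and -4.93 for Sult2a8. All of these except Lrtm2 had brain medians of at most 0.0529 CPM at both ages. The fitted values of Cyp2b13, Lrtm2 and Ighg3, at or under 3 counts in 15, 16 and 10 of the 16 young livers, depend on the prior count, and the livers' own rises were at least 434-fold, 29.2-fold and 21.3-fold.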

How the results depend on the processing

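The count of 9639 genes called between 28 and 3 months was 6198 in preparation 1 alone and 2457 in preparation 2 alone, and 9356 to 9776 with each liver left out in turn. The count of 2218 genes at the 2-fold level was 4676 with no filter and 947 in preparation 2 alone, and 2115 to 2423 with each liver left out. The count of 2385 between 28 and 24 months was 4502 with voom weights, 1152 with only these ages, 2520 in preparation 1 alone, 198 in preparation 3 alone, 228 with the clock score, 4649 without livers 10 and 13 of 24 months (5529 without the 5 of lowest correlation there), 1886 to 3615 with each liver left out (highest without liver 13 of 24 months), and 0 in preparation 2 alone (edgeR, with 2172 genes at an unadjusted p under 0.05). The numbers of the livers do not pair them. With a replicate block 7636, 1839 and 241 genes were called in these comparisons, and 5606 between liver and brain with the mouse as the block, where the pairing is true. The causes of these shifts were not tested. Of 153 named genes 1 reversed: Cela2a, a pancreatic gene, was -1.30 and became 0.30 with voom weights (adjusted p = 0.372) and 0.75 without the 5 young livers of lowest correlation (adjusted p = 0.0203). Calls were lost for 44 of 152 named genes in preparation 2 alone and for 10 with the clock score. No scaling moved the median of all genes beyond 0.07. For genes near 3 counts in young livers the fitted fold changes depend on the prior count.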
